A study of Mus musculus with 10 samples.

Results

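The PRDM proteins are transcriptional regulators that carry a PR domain, a relative of the SET domain of histone methyltransferases, and in most cases arrays of C2H2 zinc fingers that bind DNA or other proteins. Some members methylate histones themselves, and many act by recruiting corepressors such as CtBP or histone methyltransferases such as G9a. PRDM16 is best known as a determinant of brown adipocytes and is also expressed in arteries, its close relative MECOM (also called PRDM3 or MDS1-EVI1) is known for hematopoietic stem cells, and PRDM6 (PRISM) is known as a smooth muscle repressor. The family members followed here were *Prdm16*, *Mecom*, *Prdm1*, *Prdm2*, *Prdm4*, *Prdm6*, *Prdm8*, *Prdm10*, and *Prdm15*. They were found by gene symbol, and all 9 had 1 row each among the 55426 genes of the expression table.

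RNA-Seq was performed on thoracic aortas of 3 control mice, labelled *Prdm16* f/f, and 3 *Prdm16*SMKO mice, labelled *Prdm16* f/f with SMMHC-CreERT2. By these labels both groups carry the floxed *Prdm16* allele and differ by the Cre transgene, a tamoxifen-inducible recombinase driven by the promoter of smooth muscle myosin heavy chain (*Myh11*). The paper places this transgene on the Y chromosome and describes the knockout mice made with it as male. Its description of the RNA-Seq does not give the sex of the controls. The study's methods give a C57BL/6J background and, to induce the knockout, tamoxifen at 75 mg/kg/day for 5 days at 8 weeks of age with a washout of 2 weeks. The methods name both floxed mice and Cre mice as controls, and the kind used here is taken from the labels alone. The sources used here do not give the age and clock time at which these aortas were taken or whether the controls received tamoxifen, and the table names the control columns WT. Binding was measured by ChIP-Seq in primary vascular fibroblasts of wild-type genotype, not in smooth muscle cells. These cells were exposed for 48 hours to a lentivirus, either empty or with a Flag-tagged PRDM16, then kept in 2 μg/mL puromycin for 1 week, and each condition had 1 anti-Flag library.

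Expression values are given as TPM, a measure of transcript abundance scaled for transcript length and to a fixed total per aorta, so that levels of different genes can be compared. TPM hold no read counts, and the depth behind each value is unknown. The aorta is bulk tissue, in which fewer cells of a type and less RNA per cell cannot be told apart. The 7 smooth muscle markers summed to between 20745 and 24185 TPM in control and between 13816 and 17864 TPM in *Prdm16*SMKO aortas, so the tissue expressed the markers of its label in all 6 aortas, with no overlap between the groups. Of these 7 markers, 6 had a log2 fold change below 0, 4 had groups that did not overlap, all lower, and 0 passed the test. Over all genes tested 14.9% were lower without overlap, and the median log2 fold change was −0.12. The paper reports less protein of *Acta2*, *Cnn1*, and *Tagln* in the medial layer of knockout thoracic aortas, which RNA values do not measure. It also cites earlier work of its authors in which *Acta2* mRNA was lower in *Prdm16*SMKO aortas. In cultured rat smooth muscle cells it reports less mRNA of these genes and of *Myh11* after *Prdm16* knockdown. Here the RNA of *Acta2*, *Cnn1*, and *Tagln* was lower without overlap, at 64.9%, 72.1%, and 81.3% of the control mean. *Myh11* RNA (84.9%) overlapped, and none of these genes passed the test. Summed endothelial markers (91.7 to 112 against 62.5 to 138 TPM), fibroblast markers (926 to 1171 against 789 to 1127 TPM), leukocyte markers (27.6 to 38.8 against 22.6 to 40.2 TPM), and skeletal muscle markers (8.92 to 12.7 against 4.77 to 12.8 TPM) overlapped between control and *Prdm16*SMKO aortas. Summed brown adipocyte markers overlapped too and varied widely, from 127 to 566 TPM in control and from 137 to 446 TPM in *Prdm16*SMKO aortas. None of the markers of any of these lists was at 0 in all 6 aortas.

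In control aortas *Prdm6* was the most abundant of the 9 genes and *Prdm16* the next. *Prdm6* had 76.3 to 107 TPM and *Prdm16* 40.3 to 56.1 TPM, with no overlap between these ranges. *Mecom* (12.8 to 18.6 TPM) and *Prdm2* (14.9 to 18.1 TPM) followed and did not differ beyond their spread. Below them came *Prdm4* (6.31 to 7.89 TPM), *Prdm15* (4.55 to 6.31 TPM), and *Prdm10* (3.46 to 5.22 TPM), in which each neighbour overlapped the next. *Prdm8* (0.10 to 0.24 TPM) and *Prdm1* (0.04 to 0.18 TPM) were near 0. Over the 6 aortas *Prdm6* had a higher mean TPM than 92.2% of all genes tested and *Prdm16* than 83.9%, while *Prdm10* stood above 34.3%. In *Prdm16*SMKO aortas the order of the first 7 genes by mean was the same, but the ranges of *Prdm16* (23.3 to 33.3 TPM) and *Mecom* (18.6 to 25.7 TPM) now overlapped, and those of *Mecom* and *Prdm2* (12.6 to 16.7 TPM) no longer did.

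**Figure D1:**
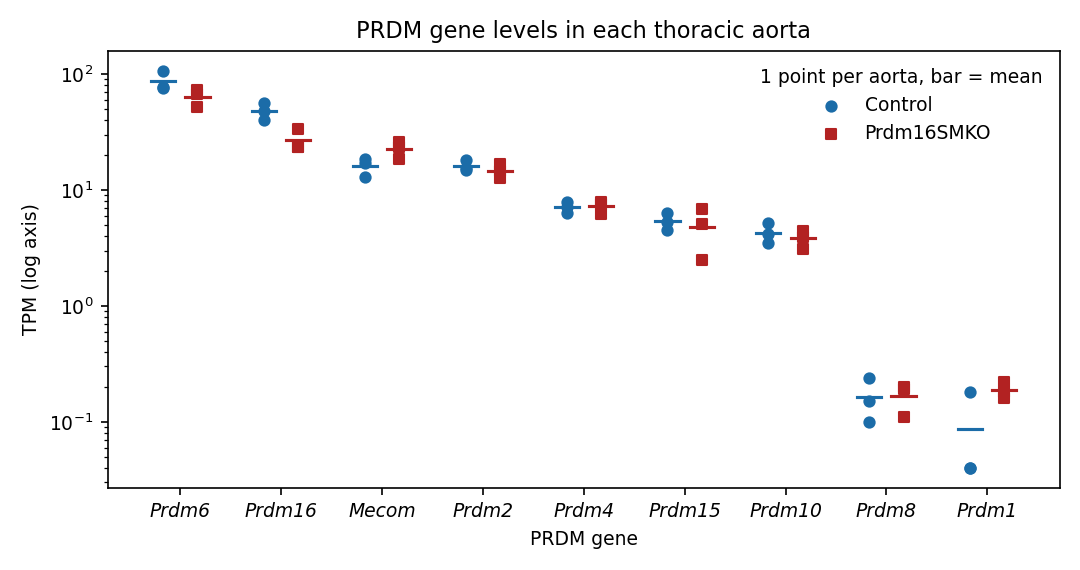
TPM of the 9 PRDM genes (log axis) in each of 3 control and 3 *Prdm16*SMKO aortas, ordered by control mean, with 1 point per aorta and a bar at the group mean. The groups are apart for *Prdm6* and *Prdm16*, which are lower in *Prdm16*SMKO, and overlap for the others.

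Of the 9 members, 7 had a mean of at least 0.5 TPM and entered the test across all 15668 genes (limma, Benjamini-Hochberg adjusted *P* below 0.05). None of the 7 was called, against 1.07% of all genes tested, with 0.389% called higher and 0.683% called lower. The study's own list of differentially expressed genes with PRDM16 promoter peaks holds *Mecom* as higher and *Prdm6* as lower. That list came from the study's own test, so a gene not called here is not shown to be unchanged. Of the 7, 3 (*Prdm16*, *Prdm6*, and *Mecom*) had an unadjusted *P* below 0.05, compared with 12.7% of all genes. The groups of 2 members, *Prdm16* and *Prdm6*, did not overlap, both being lower in *Prdm16*SMKO. Such a separation was seen in 19.0% of all genes tested, with 14.9% lower and 4.08% higher in *Prdm16*SMKO. The median log2 fold change of the 7 members was −0.15, beside −0.12 over all genes tested. Rescaling of the aortas removed the shift of all genes (median 0.0046 after median ratio rescaling and −0.0053 after quantile normalization). After either rescaling *Mecom* joined *Prdm16* and *Prdm6* among the genes whose groups did not overlap, and the share of all genes so separated became 11.0% higher and 10.7% lower with median ratios. With either rescaling 1 member, *Prdm16*, was called. More genes were then called among all 15668, with 413 after median ratio rescaling and 392 after quantile normalization, beside 168 as deposited.

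*Prdm16* (ENSMUSG00000039410; chromosome 4, 154316125 to 154636873 in GRCm38, minus strand), the gene targeted in this model, measured 56.1, 47.6, and 40.3 TPM in the controls. The *Prdm16*SMKO aortas had 23.3, 33.3, and 23.4 TPM. Every *Prdm16*SMKO aorta was lower than every control aorta, with *Prdm16*SMKO aorta 2 closest to the controls, and the group mean was 55.6% of that of the controls. The log2 fold change on log2(TPM + 0.1) was −0.85 (95% interval −1.26 to −0.44, n = 3 each), with an adjusted *P* of 0.072 by limma. That value missed the threshold, as did 11 of the 14 alternatives, with an adjusted *P* by limma of up to 0.23 without a mean-variance trend and without *Prdm16*SMKO aorta 1. It was 0.024 after median ratio rescaling, 0.033 after quantile normalization, and 0.040 without *Prdm16*SMKO aorta 2, the one nearest to the controls. The loxP sites of the floxed allele in common use surround exon 9, and a value for the whole gene does not show that exon apart from the others. *Prdm16* is also a gene of brown adipocytes, whose summed markers were lowest (127 TPM) in control aorta 1, the aorta with the most *Prdm16*. All 5 of these markers had a log2 fold change below 0, beside a median of −0.12 over all genes tested. Only *Dio2*, a deiodinase gene, did not overlap between the groups (16.1, 22.8, and 21.9 against 11.1, 9.88, and 13.3 TPM; log2 fold change −0.81, adjusted *P* = 0.085 by limma). Of all genes tested, 14.9% were lower without overlap. *Ucp1*, *Cidea*, *Adipoq*, and *Plin1* overlapped, with adjusted *P* by limma from 0.82 to 0.98. *Dio2* did not follow *Ucp1*, which was highest (127 TPM) in *Prdm16*SMKO aorta 3. The part of these markers in the result was not tested.

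The sum of the smooth muscle markers moved in the same direction as *Prdm16*, so *Prdm16* was also taken relative to that sum within each aorta, an alternative chosen after the data had been seen. The log2 of that sum was itself lower by a difference of −0.47. On this scale every gene is thus shifted upward, and the median of all genes tested is 0.36. *Acta2* contributed most to the sum, with a mean of 11569 TPM in control and 7512 TPM in *Prdm16*SMKO aortas (log2 fold change −0.63). The markers did not move alike, with −0.24 for *Myh11* and 0.25 for *Myocd*. The sum therefore does not measure the content of smooth muscle cells. The log2 of the ratio for *Prdm16* was −8.75, −8.80, and −9.01 in control and −9.44, −9.07, and −9.20 in *Prdm16*SMKO aortas. The groups still did not overlap, beside 1.77% of all genes tested that were lower without overlap on this scale, and the difference was −0.38 (exact permutation *P* = 0.1, two-sided, the smallest that 3 against 3 aortas allow, 1 of 4 genes compared in this way). The difference in *Prdm16* thus had the same direction as in TPM, and its smaller size follows from the upward shift of every gene on this scale. Its antisense neighbor *Prdm16os*, named after its values were seen, starts 703 bp beyond the *Prdm16* start on the other strand and shares 0 of its 3542 exonic bases with *Prdm16* exons. *Prdm16os* had 25.1, 18.1, and 17.6 TPM in control and 14.9, 16.5, and 14.3 TPM in *Prdm16*SMKO aortas, with no overlap (log2 fold change −0.39, adjusted *P* = 0.37 by limma). In TPM, 14.9% of all genes tested were lower without overlap.

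*Mecom* (ENSMUSG00000027684; chromosome 3, 29951296 to 30548008, minus strand), the paralog nearest to *Prdm16*, had, in the values as deposited, the only log2 fold change above 0.1 among the 7. It had 18.6, 12.8, and 17.1 TPM in control and 25.7, 23.4, and 18.6 TPM in *Prdm16*SMKO aortas. An overlap came from a single pair, since *Prdm16*SMKO aorta 3 (18.58 TPM) was just below control aorta 1 (18.61 TPM). The log2 fold change was 0.48 (95% interval 0.066 to 0.90, n = 3 each), and its adjusted *P* of 0.32 by limma missed the threshold. Its sign was the same in all 15 of 15 settings run, with adjusted *P* by limma from 0.11 to 0.67, none past the threshold.

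A ratio of TPM within an aorta does not depend on a factor applied to the whole aorta. *Mecom* reached 0.332, 0.270, and 0.424 TPM per TPM of *Prdm16* in control and 1.10, 0.703, and 0.793 in *Prdm16*SMKO aortas. *Mecom* thus exceeded *Prdm16* only in *Prdm16*SMKO aorta 1, while every *Prdm16*SMKO aorta had a higher ratio than every control aorta. The log2 ratio of *Prdm16* to *Mecom* was 1.57 ± 0.32 in control and 0.23 ± 0.33 in *Prdm16*SMKO aortas, a difference of −1.33 (SD, n = 3 each; exact permutation *P* = 0.1, two-sided, the smallest possible). Of the 8 ratios of *Prdm16* to another member, 7 had groups that did not overlap, beside 71.5% of the ratios of *Prdm16* to every other gene tested, so the count is not particular to the family. The median difference over those genes was −0.74. For the members it ran from −1.33 for *Mecom* to −0.41 for *Prdm6*, leaving aside *Prdm1*, which was near 0 TPM and whose difference depended on the pseudocount (−1.55, −0.96 with a pseudocount of 1, and −2.18 with 0.01). The exception was *Prdm15* (difference −0.58, exact permutation *P* = 0.5), whose own values were scattered. These ratios share *Prdm16* and are not independent of each other, and with 8 of them the smallest *P* of 0.1 passes no correction.

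*Prdm6* (ENSMUSG00000069378) had 107, 76.8, and 76.3 TPM in control and 66.9, 72.1, and 51.5 TPM in *Prdm16*SMKO aortas. There was no overlap, but *Prdm16*SMKO aorta 2 lay close below control aortas 2 and 3. The log2 fold change was −0.44 (95% interval −0.84 to −0.044, n = 3 each; adjusted *P* = 0.34 by limma). Relative to the summed smooth muscle markers, a sum to which *Acta2* contributes most, the groups overlapped. The median of all genes on this scale is 0.36. The log2 ratio was −8.01 ± 0.16 in control and −7.98 ± 0.080 in *Prdm16*SMKO aortas (SD, n = 3 each), with a difference of 0.028 and an exact permutation *P* of 0.8. On the same scale *Mecom* differed by 0.96 (exact permutation *P* = 0.1), more than the median of all genes, and *Prdm2* by 0.32 (exact permutation *P* = 0.1), close to that median. Both were higher in every *Prdm16*SMKO aorta, as were 49.5% of all genes tested, so a gene with equal TPM in both groups appears higher here.

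**Figure D2:**
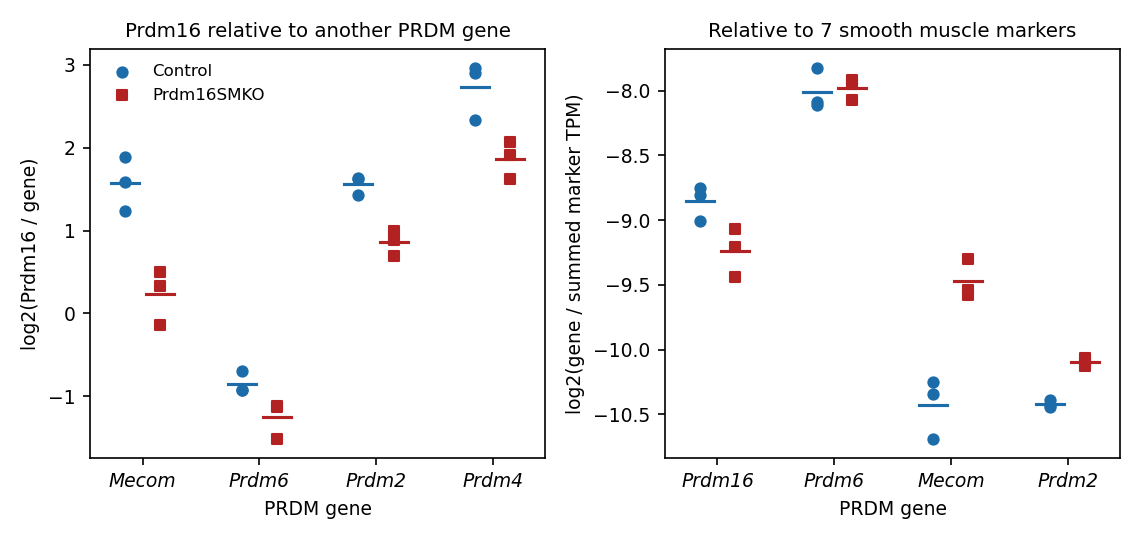
Log2 ratios within each aorta, with 1 point per aorta and a bar at the mean of 3. The left panel shows *Prdm16* divided by each of 4 other PRDM genes, lower in every *Prdm16*SMKO than in every control aorta, and the right panel shows 4 PRDM genes divided by the summed TPM of 7 smooth muscle markers, where *Prdm6* overlaps and *Prdm16*, *Mecom*, and *Prdm2* do not and the median difference of all genes tested is 0.36.

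As a share of the summed TPM of all 9 members, *Prdm6* made up 43.0% to 49.3% in each of the 6 aortas. *Prdm16* made up 24.2% to 28.2% of the sum in control and 15.8% to 20.4% in *Prdm16*SMKO aortas, and *Mecom* took 7.62% to 10.2% in control and 14.4% to 17.4% in *Prdm16*SMKO aortas. The sum itself was 166.5 to 216.65 TPM in control and 119.58 to 163.19 TPM in *Prdm16*SMKO aortas, again without overlap. *Prdm6* was thus in front in every aorta, and *Prdm16* and *Mecom* stood closer together in the *Prdm16*SMKO than in the control aortas.

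In TPM the groups overlapped for each of the other tested members. *Prdm2* (RIZ1), a histone H3K9 methyltransferase, had 18.1, 15.4, and 14.9 TPM in control and 14.4, 16.7, and 12.6 TPM in *Prdm16*SMKO aortas (log2 fold change −0.15, 95% interval −0.50 to 0.20, n = 3 each; adjusted *P* = 0.72 by limma). *Prdm2* lies 11.1 Mb from *Prdm16* on chromosome 4. Of the 253 genes tested within 20 Mb of *Prdm16*, 8.30% were called, beside 1.07% of all genes tested. *Prdm2* was not among the called genes, and the cause of this share was not tested. *Prdm4*, which binds PRMT5 and is linked to neurotrophin signaling, had 7.11, 6.31, and 7.89 TPM in control and 6.15, 7.88, and 7.57 TPM in *Prdm16*SMKO aortas (log2 fold change 0.017, 95% interval −0.37 to 0.41). *Prdm10* had 5.22, 4.17, and 3.46 TPM in control and 3.96, 4.41, and 3.10 TPM in *Prdm16*SMKO aortas (log2 fold change −0.15, 95% interval −0.67 to 0.36), and *Flcn*, which PRDM10 is known to activate, had a log2 fold change of −0.0015. *Prdm15*, a regulator of pluripotency signaling, was the most scattered, with 4.55, 5.32, and 6.31 TPM in control and 6.80, 5.05, and 2.49 TPM in *Prdm16*SMKO aortas (log2 fold change −0.27, 95% interval −1.03 to 0.49). Without *Prdm16*SMKO aorta 3, the lowest for *Prdm15*, the log2 fold change was 0.13.

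*Prdm1* (BLIMP1), a repressor of B cell genes, and *Prdm8* did not pass the filter on low values. *Prdm1* had 0.04, 0.04, and 0.18 TPM in control and 0.22, 0.18, and 0.16 TPM in *Prdm16*SMKO aortas. *Prdm8* had 0.24, 0.10, and 0.15 TPM in control and 0.19, 0.11, and 0.20 TPM in *Prdm16*SMKO aortas. For both genes the groups overlapped, and the adjusted *P* by limma in the fit without a filter was 0.67 for *Prdm1* and 0.99 for *Prdm8*.

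**Figure D3:**
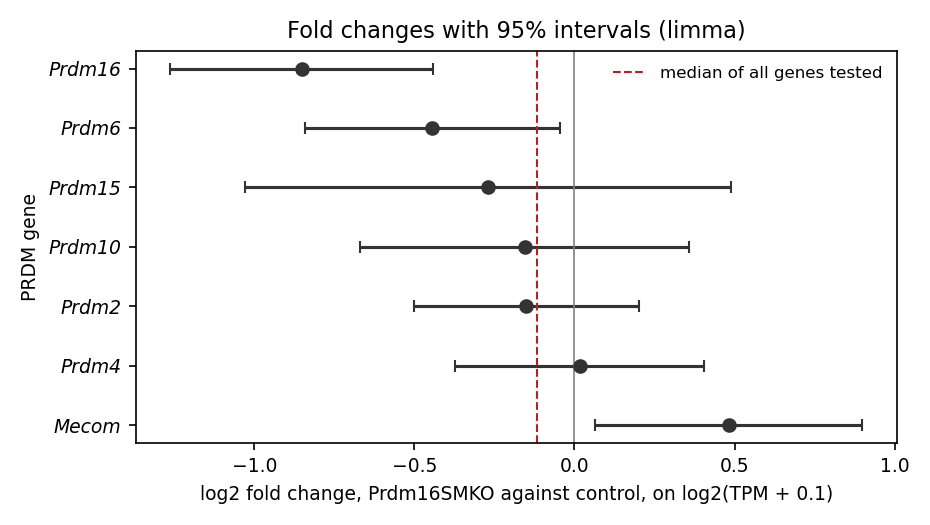
Log2 fold changes of the 7 tested PRDM genes in *Prdm16*SMKO against control aortas (3 each) on log2(TPM + 0.1), with 95% intervals from limma, and the median of all genes tested as a dashed line. The intervals of *Prdm16*, *Prdm6*, and *Mecom* leave out 0, and those of *Prdm16* and *Mecom* also leave out the median of −0.12.

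Among 6 other PRDM genes, 3 were tested and 0 were called, beside 1.07% of all genes tested. *Prdm11* had 13.2, 9.91, and 10.6 TPM in control and 7.39, 8.93, and 5.97 TPM in *Prdm16*SMKO aortas without overlap (log2 fold change −0.60, adjusted *P* = 0.23 by limma). Lower values without overlap were seen in 14.9% of all genes tested. *Prdm9* (2.35 to 2.87 against 1.66 to 2.42 TPM), the gene known for placing meiotic recombination, overlapped, as did *Zfp408* (4.42 to 4.65 against 3.70 to 6.52 TPM). *Prdm12* and *Prdm13* were listed at 0 in all 6 aortas, and *Prdm14* at 0 in all but *Prdm16*SMKO aorta 3 (0.04 TPM). Of 19 genes for partners of PRDM proteins, 0 were called, 6 had a log2 fold change above 0 and 13 below, with a median of −0.11. The groups of 3 of the 19 partners did not overlap, all lower in *Prdm16*SMKO. Beside this, 14.9% of all genes tested were lower without overlap, a similar share, so the count is not particular to partners. They were *Smad3*, a transducer of TGF-β signals (13.9, 11.5, and 10.3 against 8.21, 7.61, and 6.52 TPM; log2 fold change −0.66, adjusted *P* = 0.13 by limma), *Ski*, a corepressor of SMADs (114 to 149 against 81.3 to 106 TPM; log2 fold change −0.40), and the deacetylase gene *Hdac2* (40.6 to 42.9 against 31.8 to 36.6 TPM; log2 fold change −0.26). *Ski* lies 0.517 Mb from *Prdm16*. Although not called here, *Prdm11*, *Smad3*, and *Ski* are held as lower in the study's own list of differentially expressed genes with PRDM16 promoter peaks. The corepressor genes *Ctbp1* (83.6 to 93.3 against 67.9 to 90.4 TPM) and *Ctbp2* (22.5 to 28.2 against 21.6 to 26.9 TPM) and the G9a gene *Ehmt2* (36.9 to 49.3 against 39.6 to 60.4 TPM) were well expressed and overlapped.

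Of 8 genes known as targets of PRDM proteins, 7 were tested and 0 were called, beside 1.07% of all genes tested. Of the 7, 5 had a log2 fold change above 0 and 2 below, with a median of 0.15. *Id3*, an inhibitor of basic helix-loop-helix factors, had 79.5, 73.4, and 71.1 TPM in control and 117, 123, and 86.2 TPM in *Prdm16*SMKO aortas without overlap (log2 fold change 0.53; limma adjusted *P* = 0.17). Over all genes tested, 4.08% were higher without overlap. *Id3* lies 18.2 Mb from *Prdm16*. The study's own list of differentially expressed genes with PRDM16 promoter peaks holds *Id3* as higher. *Bcl6* (6.38 to 12.9 against 8.73 to 16.4 TPM), *Myc* (2.02 to 2.64 against 2.00 to 3.10 TPM), and *Spry1* (9.07 to 10.2 against 8.15 to 11.4 TPM) overlapped.

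Genes with a pattern over the 6 aortas most like that of the leading members were sought among 9686 genes with a mean of at least 5 TPM, as a description, since the 6 points fall into 2 groups and share their libraries. *Prdm16* was followed most closely by *Gstm7* (Pearson *r* = 0.9996), *Cog5* (0.998), which encodes a Golgi tethering subunit, and *Gspt1* (0.997), which encodes a translation termination factor. *Gstm7*, a glutathione transferase gene, had 15.1, 13.0, and 11.4 TPM in control and 7.27, 9.76, and 7.14 TPM in *Prdm16*SMKO aortas. For *Mecom* the nearest were the immunoproteasome gene *Psmb10* (0.992), *Pxdc1* (0.978), and the membrane metalloproteinase gene *Mmp14* (0.974). For *Prdm6* they were the forkhead gene *Foxn3* (0.998), *Ski* (0.997), and the phosphoinositide phosphatase gene *Synj2* (0.997).

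PRDM16 binding near the 9 genes was read from the 11271 peaks of the anti-Flag library of PRDM16-infected fibroblasts, beside 67 peaks of the vector library. With 1 library per condition, these values have no replicate and no test. In all, 18 PRDM16 peaks lay in or within 50 kb of a member, 15 of them inside the gene, and 0 vector peaks did. A promoter peak, with its center within 2 kb of a curated RefSeq transcript start, was found for 5 of the 9 members (*Mecom*, *Prdm1*, *Prdm4*, *Prdm6*, and *Prdm15*), beside 43.3% of the genes tested in the aorta. A peak in the gene body was found for 8 of 9, with *Prdm10* as the exception, beside 37.7% of tested genes. *Prdm16* and *Mecom* are longer than 300 kb, and of tested genes of at least that length 74.8% had a peak in the body. *Prdm10* had its nearest peak 68272 bp away. The fold enrichment of a peak is the signal at its summit over the local background, and that of the 18 peaks ran from 2.75 to 11.5, and the median of all PRDM16 peaks was 5.27. Among the 6 other PRDM genes, 2 had a promoter peak and 4 a peak in the body.

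Of the 18 peaks in or near the members, that of highest fold enrichment lay inside *Prdm16* itself, and its ends lay near those of an exon. A peak of 1332 bp (chr4:154340770-154342101) lay wholly within exon 9, starting 49 bp inside one end of the exon and stopping 36 bp inside the other. Its fold enrichment was 11.5 and its −log10 *q* 42.4, which ranked 32 among all 11271 peaks, and it was longer than 97.2% of them. A second peak (chr4:154528574-154528903; fold enrichment 7.86, −log10 *q* 19.0) had 322 of its 330 bp in exon 2. Exons 2 and 9, with 350 and 1417 coding bp, are the longest coding exons of the 17 exons, hold 46.2% of the 3828 coding bases, and are followed by an exon of 234 coding bp. Only 72 peaks (0.64%) lay at least 95% within coding exons and more than 2 kb from a RefSeq start, with a median −log10 *q* of 4.93, and the *Prdm16* peaks over exons 9 and 2 ranked 1 and 3 among them by −log10 *q*. The lentivirus carried PRDM16 coding sequence, and reads from it and from the same exons of the cell's own gene cannot be told apart in these lists. In GENCODE a transcript, Prdm16-209, starts 27 bp from the center of the exon 2 peak, so that with GENCODE transcript starts, an alternative chosen after the data had been seen, *Prdm16* and *Prdm8* also counted as having a promoter peak (7 of 9 members, beside 40.1% of tested genes).

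**Figure D4:**
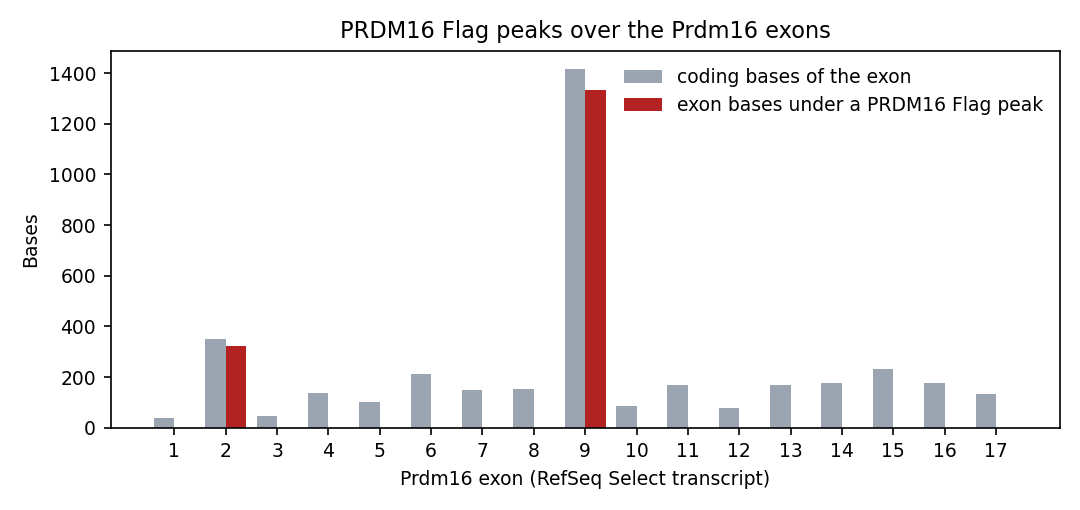
Coding bases (grey) and bases under a PRDM16 Flag peak (red) of each of the 17 *Prdm16* exons, from 1 ChIP-Seq library. Peaks cover most of exon 2 (322 bp) and exon 9 (1332 bp), the 2 longest coding exons, and no base of the other 15.

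Windows of 201 bases centered on the summits of the *Prdm16* peaks are shown because the exon peaks have the highest −log10 *q* in the family. The letters are from the plus strand of GRCm38 (RefSeq), opposite to the direction of *Prdm16* transcription, and capitals mark GAAGAT on either strand.
*Prdm16* exon 9 (chr4:154341718-154341918): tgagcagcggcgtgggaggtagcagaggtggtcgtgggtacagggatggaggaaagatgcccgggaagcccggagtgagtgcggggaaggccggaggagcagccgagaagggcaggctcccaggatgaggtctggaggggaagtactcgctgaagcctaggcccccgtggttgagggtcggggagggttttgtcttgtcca
*Prdm16* exon 2 (chr4:154528628-154528828): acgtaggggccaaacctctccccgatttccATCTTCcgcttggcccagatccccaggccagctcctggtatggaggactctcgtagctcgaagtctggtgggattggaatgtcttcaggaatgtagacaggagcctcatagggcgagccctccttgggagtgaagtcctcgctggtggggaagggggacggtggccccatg
*Prdm16* intron 2 (chr4:154521778-154521978): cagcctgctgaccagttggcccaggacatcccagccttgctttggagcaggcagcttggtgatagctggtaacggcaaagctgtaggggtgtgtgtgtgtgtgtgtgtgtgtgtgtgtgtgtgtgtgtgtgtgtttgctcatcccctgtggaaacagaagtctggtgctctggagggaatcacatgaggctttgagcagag

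The first 2 windows are coding over all 201 bases, and the exon 2 window holds 1 GAAGAT, on the minus strand. The third, from a peak of fold enrichment 8.44 at chr4:154521584-154521993, runs through a stretch of repeated GT. The remaining peak, in intron 3 (chr4:154425002-154425328), had a fold enrichment of 4.92. None of the 4 peaks lay at the annotated RefSeq start of *Prdm16*, whose distance to the nearest peak center was 108 kb.

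*Mecom* had 5 peaks in or near it, the most of the 9 genes. One (chr3:30012927-30013191, fold enrichment 5.63) was centered 145 bp downstream of an internal transcript start, in the first exon of that shorter transcript and in intron 2 of the long form that carries the PR domain. At the start of the long form, peaks were centered 1193 bp (chr3:30508351-30508613, fold enrichment 4.96) and 2038 bp downstream (chr3:30507494-30507781, 4.92) and 5354 bp upstream (chr3:30514926-30515300, 6.68). The last lay 46929 bp beyond the 3′ end (chr3:29904230-29904505, 5.63). These peaks are from fibroblasts with introduced PRDM16, and the expression values above are from aorta.

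The window at the long-form start and the one beyond the 3′ end are shown to contrast a GC-rich site near a promoter with a distal site. Capitals mark GAAGAT, a part of what the second zinc finger group of MECOM binds, and GAAAGT, a part of what PRDM1 binds, on either strand.
*Mecom* intron 1 (chr3:30508415-30508615): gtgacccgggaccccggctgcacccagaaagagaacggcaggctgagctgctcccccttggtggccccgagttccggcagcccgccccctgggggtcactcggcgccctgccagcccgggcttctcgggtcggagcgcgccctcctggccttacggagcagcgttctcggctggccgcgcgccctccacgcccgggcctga
*Mecom* distal (chr3:29904300-29904500): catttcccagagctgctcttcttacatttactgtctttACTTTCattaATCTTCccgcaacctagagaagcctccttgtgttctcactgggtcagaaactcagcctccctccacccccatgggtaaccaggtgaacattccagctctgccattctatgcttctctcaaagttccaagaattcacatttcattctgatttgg

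The intron 1 window had a GC content of 75.1% and none of the motifs searched, and the distal window had 45.3% and 1 copy of each motif marked. A further motif searched on both strands was AGATAA, a part of what the first zinc finger group of MECOM binds. It occurred in 4.01% of the summit windows of 11258 peaks and, cut to the same 201 bases around the middle, in 7.83% of 32851 RefSeq promoters, which differ from the peak windows in GC content. The corresponding shares were 8.07% and 9.20% for GAAGAT. For the PRDM1 motif GAAAGT they were 6.70% and 9.82%. The paper's own motif analysis of its PRDM16 peaks reported consensus motifs of MECOM and GATA factors as highly enriched. Counts of exact letters, beside promoters of another GC content, cannot decide on that enrichment. Of the 18 windows of members, AGATAA was in 2, at the internal *Mecom* start and at *Prdm1*. The motif GAAGAT was in 3, namely *Prdm16* exon 2, the distal *Mecom* peak, and *Prdm1*. The PRDM1 motif was in 2, both at *Mecom*. Peak windows had a median GC content of 63.7% and promoters of 52.7%.

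The other members had 1 to 3 peaks each, apart from *Prdm10*. At *Prdm4* a peak (chr10:85916517-85916919, fold enrichment 4.92) was centered 11 bp from a transcript start and covered parts of exons 1 and 2. At *Prdm15* a peak (chr16:97851556-97851870, 6.01) was centered 137 bp downstream of the start. At *Prdm1* a weak peak (chr10:44458530-44458766, 3.41) lay 100 bp from the start, in a gene near 0 TPM in the aorta. *Prdm6* had a peak of 684 bp over exon 1 (fold enrichment 6.33, centered 247 bp downstream of the start), another 1743 bp upstream (5.63), and a weak one 46.8 kb upstream (2.75). The fold enrichment of 4.92 recurs in 775 peaks of the list, so equal values of different members carry no meaning.

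*Prdm2* and *Prdm8* had peaks inside the gene and away from a RefSeq start, and their windows are shown for that reason. None of the motifs searched occurred in them.
*Prdm2* intron 6 and exon 6 (chr4:143161944-143162144): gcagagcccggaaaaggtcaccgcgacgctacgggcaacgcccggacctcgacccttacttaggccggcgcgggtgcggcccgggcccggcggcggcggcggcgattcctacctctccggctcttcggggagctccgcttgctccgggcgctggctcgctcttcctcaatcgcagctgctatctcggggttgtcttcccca
*Prdm8* exon 4 (chr5:98185735-98185935): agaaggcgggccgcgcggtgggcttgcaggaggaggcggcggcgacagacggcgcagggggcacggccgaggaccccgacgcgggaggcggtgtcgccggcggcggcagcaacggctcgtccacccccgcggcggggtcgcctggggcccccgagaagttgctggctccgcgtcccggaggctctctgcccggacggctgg

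The *Prdm2* peak (chr4:143161697-143162134, fold enrichment 6.33) had 79 of its 438 bp in exon 6. The *Prdm8* peak (chr5:98185738-98186041, 3.72) lay wholly in the coding part of exon 4, and a second *Prdm8* peak (chr5:98167198-98167576, 5.89) lay 13.5 kb upstream of the RefSeq start and 189 bp from a GENCODE start.

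*Prdm16* and *Mecom* also resembled each other at their starts. Promoter sequences were at hand for 7 of the 9 members (not for *Prdm2* and *Prdm6*), from 250 bases before to 50 after the start. In 51 comparisons between promoters of different members, the longest identical run was 24 bases, shared by *Prdm16* and the long form of *Mecom*, and that of any other pair of members was 11 bases. The run occurred in 2 of 32851 promoters, those of these 2 genes. It lay 10 to 33 bases into the first exon of *Prdm16* (chr4:154636841-154636864) and 27 to 50 bases into that of *Mecom* (chr3:30509710-30509733), before the coding sequence in both, and went on for 12 more bases beyond the end of the *Mecom* promoter sequence. No PRDM16 peak overlapped either promoter sequence.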

How the data were processed

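RNA-Seq and ChIP-Seq were processed by the authors before deposit. For RNA-Seq the authors deposited TPM, 1 column per aorta, from poly(A)-selected libraries. The submitters' processing notes name STAR 2.7.8a and RSEM 1.3.3, and the annotation behind the TPM is not given in the sources used here. For ChIP-Seq the authors aligned reads to GRCm38 using Bowtie2, and MACS2 was run for peak calling (q 0.01, effective genome size set to hs), and the library used as background is not given in the sources used here. The deposited peak lists hold the fold enrichment as a ratio, −log10 *P* and −log10 *q*, and a score, of which the fold enrichment and −log10 *q* were used. IgG libraries were left out.

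The aortas were compared with limma 3.58.1 in R 4.3.3 (lmFit, then eBayes using a mean-variance trend). Values were log2(TPM + 0.1) of genes averaging at least 0.5 TPM, with Benjamini-Hochberg adjustment over all genes tested and a threshold of 0.05. *P* values measure the spread between these aortas. TPM are not counts, so no count test and no counting interval was used. The procedure was tested on simulated data. Peaks were placed by their center against curated RefSeq starts and GENCODE vM21 gene bounds on GRCm38, with Python 3.11.15, pandas 2.3.3, and pysam 0.24.0. All members, any gene of the lists of other PRDM genes, partners and targets, and the 3 genes most like *Prdm16*, *Mecom*, and *Prdm6* by Pearson *r* could be named. The members and lists were chosen with earlier results of these data known. Alternatives were pseudocounts of 1 and 0.01, other filters, rescaling, no trend, a replicate block, leaving out each aorta, other promoter windows and distances, and stricter *q* values. A comparison of protein sequences was planned and not made here. Counts over the list of other PRDM genes leave out 1 gene that is not reported here.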

Additional observations from a re-analysis of the deposited data

How the results depend on the processing

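Of all genes tested, 168 were called (61 higher and 107 lower), and the count was 110 without a filter, 48 without a mean-variance trend, 413 after median ratio rescaling (200 higher and 213 lower), 392 after quantile normalization (189 and 203), and 91 to 141 when 1 aorta was left out. The count of PRDM members called was 0, and it was 1, *Prdm16*, after median ratio rescaling, after quantile normalization, and without *Prdm16*SMKO aorta 2, so that leaving out 1 aorta gave 0 to 1. Over the 15 settings run, 3 called *Prdm16*, and its adjusted *P* by limma lay between 0.0239 and 0.230. The sign of *Prdm4* was reversed without control aorta 2 (−0.064), *Prdm16*SMKO aorta 2 (−0.051), and *Prdm16*SMKO aorta 3 (−0.023), and that of *Prdm15* without *Prdm16*SMKO aorta 3 (0.13). Leaving out 1 aorta gave *Prdm4* log2 fold changes from −0.064 to 0.12 and *Prdm15* from −0.58 to 0.13. The cause was not tested. *Prdm16*, *Mecom*, *Prdm2*, *Prdm6*, and *Prdm10* had the same sign in 15 of 15 settings. The log2 ratio of *Prdm16* to *Prdm1* differed by −2.18 with a pseudocount of 0.01 and by −0.96 with 1. Aortas of the same number had correlations of −0.0246, −0.0700, and −0.00896 in their deviations from the group means. With the replicate number as a block, 184 genes and 0 members were called, and *Prdm16* had an adjusted *P* of 0.0601 by limma. With a *q* of at most 1e-05, 3 members had a promoter peak in place of 5, beside 28.9% of tested genes. The depth behind TPM is unknown, which limits what can be said of *Prdm1* and *Prdm8*, and single ChIP-Seq libraries have no replicate error.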
